A study of Mus musculus with 6 samples.

Results

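Solute carriers are membrane proteins that move ions, sugars, amino acids, vitamins, metals and metabolites across the cell surface and the membranes of mitochondria, lysosomes and the Golgi apparatus. Each family takes its number from sequence and usually shares a class of substrate. In bone, carriers for citrate, amino acids, zinc, phosphate and ascorbate supply osteoblasts with material for collagen and mineral, and a sulfate carrier supplies cartilage with sulfate for its proteoglycans. The expression of these genes was compared between wild-type (WT) osteoblasts and osteoblasts of mice in which the genes of the TET enzymes were deleted in mesenchyme. These enzymes oxidise methylated cytosine in DNA. Members were all genes whose symbol has the form of a solute carrier family and member number and that had 60 or more reads summed over the 6 libraries. Of 221 such symbols in the deposited table, 32 were under 60 reads and 8 were left out by name (Slc20a1, Slc20a2, Slc38a4, Slc22a18, Slc2a1, Slc2a3, Slc16a1 and Slc16a3), which left 181 members of 16455 genes. Summed reads over both genotypes chose the members, a rule that does not use the direction of a difference between genotypes. A gene could still reach 60 reads mainly through the libraries of either genotype alone. The set was also proposed with results of these data known. Members were grouped by substrate from their family number, apart from single genes placed by a list of exceptions. This grouping was written with earlier results of these data known. The main groups were citrate, anion, amino acid, zinc and nucleoside carriers.

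RNA-seq was performed on primary osteoblasts from 3 WT and 3 triple conditional knockout (TCKO) samples, all labelled with the C57/B6 strain. In TCKO mice, both copies of Tet1, Tet2 and Tet3, all flanked by loxP sites (fl/fl), were deleted by Prx1-Cre, a Cre recombinase driven by a promoter active in mesenchyme of the limb buds and part of the skull, so cells in which Prx1 was never active keep the genes. Cells were taken from the parietal bone of 3-day-old mice and cultured for 3 days. The labels name no separate animal, litter or culture for a library, so a p-value measures the spread among these libraries alone, which can be technical. Libraries are called WT-1 to WT-3 and TCKO-1 to TCKO-3 after their replicate numbers.

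The libraries held 8119261 to 10657824 reads each. Replicates 1 and 2 of each genotype were much more alike than either was to replicate 3, with a chi-square of 1.75 per gene in WT and 2.53 in TCKO against 15.8 to 23.04 for pairs within a genotype that included replicate 3. Values above 1 exceed the noise of counting reads but do not show that libraries came from separate animals or cultures. All 6 libraries were counted as samples, and results with replicates 1 and 2 summed into 1 library are given beside the calls. Whole-gene counts of the targeted genes do not check the deletion of part of a gene: the log2 fold changes in edgeR were -0.94 for Tet1 (adjusted p = 0.0207), -0.29 for Tet2 (0.244) and 0.48 for Tet3 (0.00803). Of 10 osteoblast markers, 8 were listed (not Dmp1 and Bglap), 4 fell and Spp1 rose, with sums of 41324 to 44638 CPM in WT and 37072, 38018 and 21620 CPM in TCKO. Alpl was at 20.6, 18.7 and 61.6 CPM in WT and 2.66, 2.95 and 5.18 CPM in TCKO (log2 fold change -3.21 ± 0.63, adjusted p = 0.0204), a call lost without any 1 TCKO library (0.0644 to 0.0772) and with replicates 1 and 2 summed (0.105). All 8 chondrocyte markers fell, from a summed 8082 to 9818 CPM in WT to 982 to 1399 CPM in TCKO. The macrophage markers were led by Lyz2 and summed to 399 to 811 CPM in WT and 161 to 598 CPM in TCKO, lowest in replicate 3 of each genotype, and none of 10 tested passed in edgeR (at an unadjusted p under 0.05, 3 were lower, and DESeq2 called 3 lower and limma-voom 1). Of 7 osteoclast markers, 2 were tested and Ctsk fell, while Calcr, Ocstamp and Dcstamp were not listed. In the endothelial list Kdr rose but Pecam1 and Cdh5 were under 1 CPM in every library, and no erythroid marker was listed. The part of these cell types in the results below was not tested, and in bulk RNA fewer cells of a type and less RNA per cell cannot be told apart.

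More solute carrier genes fell in TCKO osteoblasts than rose. CPM is reads per 1000000 after TMM scaling of the libraries. A gene was called with edgeR at an adjusted p under 0.05, with p adjusted over all 13630 genes tested. Of 181 members, 13 (7.18%) rose and 35 (19.3%) fell, while 9.44% of all genes tested rose and 8.9% fell. At a fold above 2 as well, 6 of the 181 members rose and 10 fell, against 410 (3.01%) and 417 (3.06%) of all 13630 genes tested. The share of members that rose at this fold was near that of all genes. The filter on low counts removed Slc13a3 and Slc24a2 and left 179 members tested, with a median log2 fold change of -0.14 against -0.0011 over all genes. The 3 WT and 3 TCKO values did not overlap in 88 members (48.6%), 67 of them lower in TCKO, and in 38.2% of all genes. Together the members held 0.965% to 0.981% of all reads in the WT libraries and 0.879% to 0.910% in the TCKO libraries, with no overlap between genotypes.

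All 48 called members had genotypes that did not overlap and had the same direction within replicates 1 and 2 as within replicate 3. Genes that pass this test tend to have both traits, so the traits add no support to the calls. With replicates 1 and 2 of each genotype summed, 6 of the 48 passed, with 2 higher (Slc5a3 and Slc25a13) and 4 lower (Slc13a5, Slc26a7, Slc48a1 and Slc7a2). In every fit that left out 1 library, 16 of the 48 passed (3 higher and 13 lower). The counts changed most without WT-1 (7 higher, 15 lower), WT-2 (5 higher, 16 lower), TCKO-1 (7 higher, 18 lower) and TCKO-2 (7 higher, 16 lower), and were 13 higher and 44 lower without WT-3 and 15 higher and 37 lower without TCKO-3. At a fold above 2, the rises fell to 3 without WT-1 and to 4 without WT-2, TCKO-1 or TCKO-2. At the same fold, the falls numbered 4 without WT-1, 4 without WT-2 and 5 without TCKO-2. The share of all genes called was not counted in these other fits, so their member counts cannot be set against it. The heat map of called genes shows their values in each library.

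**Figure D1:**
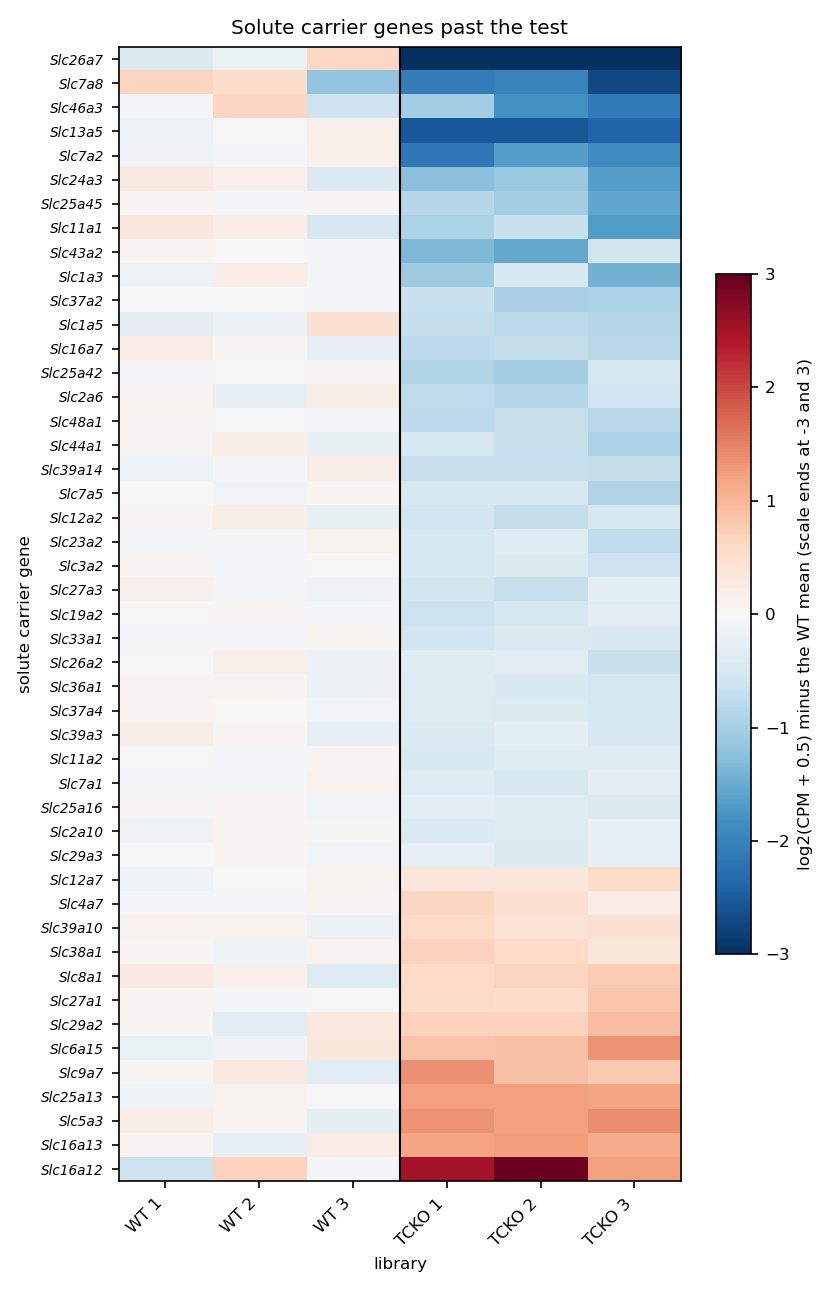
Heat map of 47 of the 48 solute carrier genes that passed edgeR's test, 1 gene a row and 1 library a column, coloured by log2(CPM + 0.5) minus the mean of the 3 WT libraries, with a scale that ends at -3 and 3. The 34 genes in the upper part were lower in every TCKO library than in any WT library, and the 13 in the lower part were higher.

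Among the 6 members that passed in every fit above was Slc13a5, the carrier that brings citrate into the cell with sodium, a gene expressed mainly in liver, brain and bone (Entrez 237831, chr11:72241990-72267295, GRCm38.p6). Slc13a5 was at 112, 122 and 137 CPM in WT-1 to WT-3 and at 20.7, 20.6 and 22.9 CPM in TCKO-1 to TCKO-3. All WT libraries were high and all TCKO libraries low, without overlap, and replicate 3 lay close to the other libraries of its genotype. The TCKO level was 5.77-fold lower (log2 fold change -2.53 ± 0.10 (SE, n = 3 per genotype), edgeR adjusted p = 1.11e-05) and passed with replicates 1 and 2 summed (adjusted p = 0.00583). Of its exon length, 9.57% is shared with 1700051A21Rik on the opposite strand, and the counting is not stated to use strand, so reads of the overlap cannot be assigned.

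Slc26a7 (Entrez 208890, chr4:14502430-14621946) encodes an anion exchanger and chloride channel known from thyroid, stomach and kidney. It was at 12.9, 15.3 and 27 CPM in WT and at 0.554, 0.614 and 0.441 CPM in TCKO. It was present in all WT libraries, highest in WT-3, and close to absent in all TCKO libraries, where 4 or 5 reads were counted per library. This was the largest fold among called members, 33.5-fold lower (log2 fold change -5.07 ± 0.41, adjusted p = 2.98e-04, and 0.0164 with replicates 1 and 2 summed). Slc7a2 (Entrez 11988, chr8:40862341-40922070), a carrier of arginine and lysine, was at 15.3, 15.8 and 18.5 CPM in WT and 3.33, 4.91 and 4.08 CPM in TCKO. Every TCKO library was below every WT library, by 4.03-fold on average (log2 fold change -2.01 ± 0.18, adjusted p = 3.71e-04, and 0.0179 with replicates 1 and 2 summed). Gm26584 on the opposite strand covers 6.95% of its exon length.

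Slc48a1 (Entrez 67739, chr15:97784365-97792692) carries heme out of the lysosome and, at 79.8 CPM per kilobase of exon over all libraries, was the most abundant of the 6 genes. It was at 285, 278 and 268 CPM in WT and 160.1, 171 and 155 CPM in TCKO. Its WT and TCKO libraries formed separate narrow ranges, 1.71-fold apart (log2 fold change -0.77 ± 0.07, adjusted p = 3.32e-04, and 0.0346 with replicates 1 and 2 summed). Of the members that rose, Slc5a3 (Entrez 53881, chr16:92058322-92087473), the sodium-coupled importer of the osmolyte myo-inositol, was at 25, 22.7 and 17.7 CPM in WT and 56, 51.5 and 57.4 CPM in TCKO. All TCKO libraries were above all WT libraries, by 2.52-fold on average (log2 fold change 1.33 ± 0.13, adjusted p = 4.89e-04, and 0.0262 with replicates 1 and 2 summed). Slc5a3 shares 1.46% of its exon length with Mrps6 on the same strand.

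Slc25a13 (Entrez 50799, chr6:6041218-6217304) encodes the mitochondrial exchanger of aspartate and glutamate called citrin, a part of the malate-aspartate shuttle. It was at 5.29, 6.26 and 5.85 CPM in WT and at 14.3, 14.2 and 13.8 CPM in TCKO. The 3 TCKO values were nearly equal and all above WT, by 2.42-fold on average (log2 fold change 1.28 ± 0.14, adjusted p = 8.55e-04, and 0.0397 with replicates 1 and 2 summed). These 6 genes are shown by library in the plot of their CPM values.

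**Figure D2:**
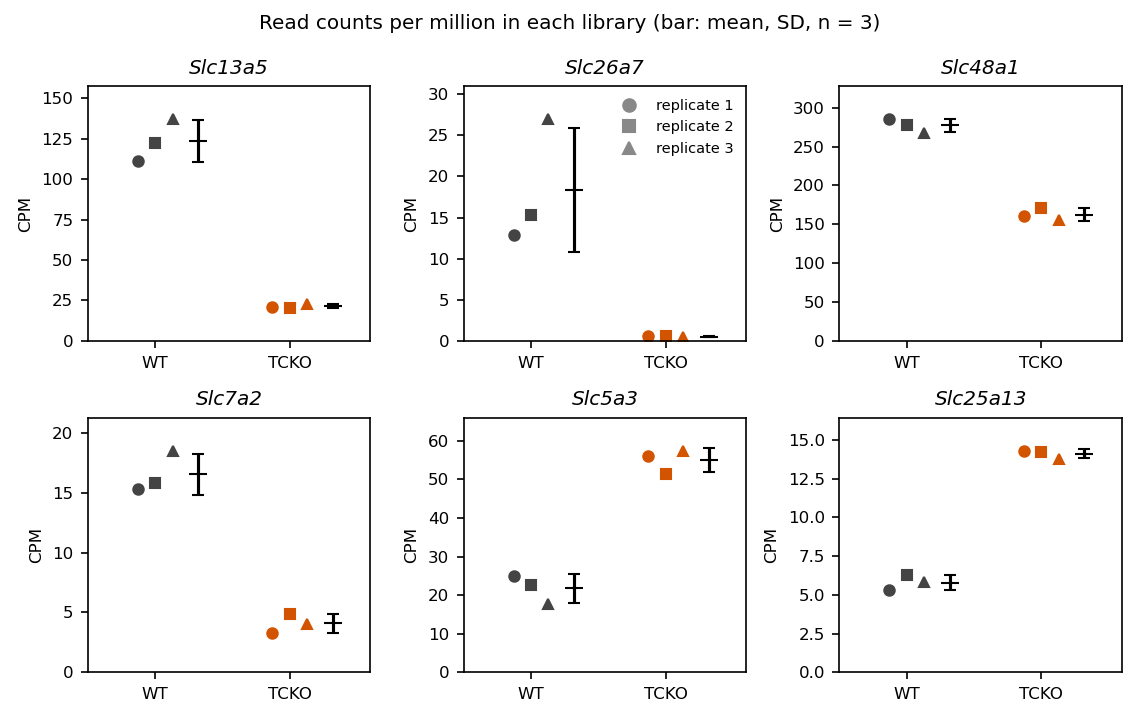
CPM values of Slc13a5, Slc26a7, Slc48a1, Slc7a2, Slc5a3 and Slc25a13 in each library, with 1 point a library (symbols mark replicates 1 to 3), a bar at the mean of each genotype and whiskers of 1 SD (n = 3). In each gene the 3 WT and 3 TCKO points do not overlap, as for Slc13a5 with 112 to 137 CPM in WT and 20.6 to 22.9 CPM in TCKO.

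Because TET enzymes act on methylated cytosine, which in mammals lies mostly before a guanine, the promoters of these 6 genes were looked up in RefSeq (GRCm38.p6, 250 bases before to 50 after a start). Entries were found for Slc13a5, with a pair of listed starts, Slc25a13 and Slc5a3, and may not cover every start of these genes. They are printed 5′ to 3′ on the strand of the gene with each CG pair in capitals.
Slc13a5, chr11:72266555-72266854, minus strand, 17 CG pairs: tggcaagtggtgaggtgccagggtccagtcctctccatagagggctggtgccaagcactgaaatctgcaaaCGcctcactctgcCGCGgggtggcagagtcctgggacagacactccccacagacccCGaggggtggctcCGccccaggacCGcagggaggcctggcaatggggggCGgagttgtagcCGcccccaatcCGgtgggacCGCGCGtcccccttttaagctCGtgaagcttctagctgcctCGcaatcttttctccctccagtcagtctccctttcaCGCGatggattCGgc
Slc13a5, chr11:72267112-72267411, minus strand, 25 CG pairs: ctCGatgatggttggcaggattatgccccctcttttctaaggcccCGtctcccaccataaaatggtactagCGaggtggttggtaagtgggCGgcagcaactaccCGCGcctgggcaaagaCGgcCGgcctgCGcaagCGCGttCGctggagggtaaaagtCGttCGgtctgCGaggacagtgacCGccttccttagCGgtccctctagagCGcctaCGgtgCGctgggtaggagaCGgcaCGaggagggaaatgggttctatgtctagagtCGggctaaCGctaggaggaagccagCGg
Slc25a13, chr6:6217124-6217423, minus strand, 17 CG pairs: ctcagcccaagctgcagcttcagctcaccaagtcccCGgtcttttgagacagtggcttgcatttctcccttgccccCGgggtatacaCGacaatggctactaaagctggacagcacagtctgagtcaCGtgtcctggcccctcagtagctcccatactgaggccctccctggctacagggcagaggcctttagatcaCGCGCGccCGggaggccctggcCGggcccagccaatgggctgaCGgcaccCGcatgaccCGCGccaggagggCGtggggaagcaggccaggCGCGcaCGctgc
Slc5a3, chr16:92058072-92058371, plus strand, 38 CG pairs: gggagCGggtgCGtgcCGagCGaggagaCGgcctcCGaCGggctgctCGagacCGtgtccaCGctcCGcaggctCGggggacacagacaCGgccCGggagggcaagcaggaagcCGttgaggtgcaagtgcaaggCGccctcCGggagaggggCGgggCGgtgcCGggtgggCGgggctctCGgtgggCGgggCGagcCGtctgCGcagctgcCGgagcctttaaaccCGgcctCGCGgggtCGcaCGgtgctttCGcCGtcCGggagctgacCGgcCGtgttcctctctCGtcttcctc

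The number of CG pairs in these windows spanned a falling and 2 rising genes without separating them. Over all 183 promoters found for 136 members the median was 18 CG pairs (range 1 to 51). It was 7 over all 32851 reference promoters of the same length, from 27025 genes not chosen by reads as the members were. The median was 16.5 in 14 promoters of 10 members that rose, 19 in 32 promoters of 24 members that fell and 18 in 137 promoters of 102 other members. The letters TGTGGT, the core bound by RUNX factors, were searched on both strands. They were in none of the 4 windows printed, in 20 of the members' promoters (10.9%) and in 16.8% of all reference promoters, whose genes were not chosen by reads. By direction they were in 0 of 14 promoters of members that rose, 4 of 32 (12.5%) of members that fell and 16 of 137 (11.7%) of the others. DNA methylation was not analysed here.

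Of 3 citrate carriers, the cell surface importer Slc13a5 fell, as given above, while the mitochondrial citrate exporter Slc25a1 was at 93, 86.5 and 88.3 CPM in WT and 86.3, 98.8 and 82.9 CPM in TCKO. Its genotypes overlapped (log2 fold change 0.00015 with an SE of 0.083, adjusted p = 0.999). Slc13a3, which carries dicarboxylates such as succinate with sodium, had 6, 12 and 103 reads in WT and 9, 8 and 29 reads in TCKO and was removed by the filter on low counts. Its reads lay mostly in replicate 3 of both genotypes, and with no filter its adjusted p was 0.519. Among 17 other genes of citrate synthesis and use, 4 rose and 2 fell, beside 9.44% rising and 8.9% falling over all genes tested. Cs, which makes citrate in the mitochondrion (log2 fold change 0.29 ± 0.06, adjusted p = 0.0157), and Fasn, which makes fatty acids from cytosolic citrate carbon (log2 fold change 0.34 ± 0.07, adjusted p = 0.0112), were higher, and Me1, which makes NADPH from malate (log2 fold change -0.44 ± 0.07, adjusted p = 0.00341), was lower. None of the 6 passed with replicates 1 and 2 summed. The rises numbered 0 without WT-1, WT-2 or TCKO-1 and 1 without TCKO-2, and the falls 1 without WT-1, WT-2 or TCKO-1. Of the 3 genes named, Me1 passed in every fit that left out 1 library. Without WT-1, WT-2 or TCKO-1 the adjusted p was 0.0685 to 0.083 for Cs and 0.055 to 0.0671 for Fasn, and without TCKO-2 it was 0.0711 for Cs.

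Of 17 anion carriers, 2 (11.8%) rose, 3 (17.6%) fell and 12 did not pass, beside 9.44% rising and 8.9% falling over all genes tested. Their median log2 fold change was 0.03. Slc26a7 was the only one of the 5 called genes past a fold of 2. Slc12a2, which brings sodium, potassium and chloride into the cell, was at 50.2, 54.4 and 41 CPM in WT and 32.5, 29 and 34.2 CPM in TCKO. The WT libraries were all higher, though WT-3 lay nearest to the TCKO values (log2 fold change -0.61 ± 0.12, adjusted p = 0.0116). Slc12a7, which moves potassium and chloride out of the cell and so works in the opposite direction, was at 33.6, 35.8 and 38.8 CPM in WT and 45.9, 45.9 and 53.2 CPM in TCKO, all TCKO libraries being higher (log2 fold change 0.42 ± 0.10, adjusted p = 0.0212). Slc12a4, a potassium and chloride exporter related to Slc12a7, had a log2 fold change of -0.35 ± 0.11 (adjusted p = 0.0561).

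For bicarbonate, Slc4a7, which brings it in with sodium, was at 39.7, 39.3 and 42.8 CPM in WT and 63.6, 56 and 47.5 CPM in TCKO. All TCKO libraries were higher, TCKO-3 the least (log2 fold change 0.46 ± 0.11, adjusted p = 0.0268). Slc4a4, another importer of bicarbonate with sodium, had a log2 fold change of -0.29 ± 0.11 (adjusted p = 0.101), and Slc4a2, the chloride and bicarbonate exchanger known for its role in osteoclasts, had a log2 fold change of -0.04 ± 0.08 (adjusted p = 0.779), with Fastk on the opposite strand covering 13.7% of its exons. Slc26a2, the sulfate carrier that is mutated in human diastrophic dysplasia, was at 32.9, 36.4 and 29 CPM in WT and 25.4, 25.8 and 20.3 CPM in TCKO. Its genotypes did not overlap (log2 fold change -0.46 ± 0.13, adjusted p = 0.0408), and all 8 cartilage markers fell with it. Slc26a1, a second sulfate carrier, was under 60 reads.

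The calls of Slc12a2, Slc12a7, Slc4a7 and Slc26a2 were lost in several fits that left out 1 library. Without WT-1 their adjusted p-values were 0.0543, 0.0927, 0.104 and 0.122. Without WT-2 they were 0.0541, 0.0844, 0.11 and 0.16, and without TCKO-2 they were 0.052, 0.0505, 0.0849 and 0.0772. Without TCKO-1, Slc4a7 (0.0912) and Slc26a2 (0.0864) did not pass, and without TCKO-3 Slc26a2 did not (0.0628). With replicates 1 and 2 summed the values were 0.167, 0.178, 0.252 and 0.242.

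Of 29 listed genes of bicarbonate and sulfate handling, 26 were tested, 5 rose and 6 fell. Over all genes tested 9.44% rose and 8.9% fell. Chst2, which adds sulfate to N-acetylglucosamine, was at 40.4, 36.1 and 36.5 CPM in WT and 77.4, 78.1 and 81.3 CPM in TCKO (log2 fold change 1.07 ± 0.08, adjusted p = 1.46e-04), and Hs2st1, which sulfates heparan sulfate, also rose (log2 fold change 0.79 ± 0.09, adjusted p = 0.00108). Hs6st2, which acts on another position of heparan sulfate, was at 327, 324 and 240.1 CPM in WT and 150.3, 140.0 and 157 CPM in TCKO and fell (log2 fold change -0.99 ± 0.12, adjusted p = 0.00147, and 0.0662 with replicates 1 and 2 summed). The values of each gene did not overlap between genotypes. With replicates 1 and 2 summed 2 rose and 0 fell. The falls numbered 3 without WT-1, WT-2, TCKO-1 or TCKO-2, and the rises 3 without WT-2.

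The amino acid carriers had the most called members by count: of 28, 2 rose and 9 fell (32.1%), while 8.9% of all genes fell. By share, falls were more frequent among carriers of vitamins and choline (37.5%), of iron, copper and magnesium (33.3%) and of citrate (33.3%). Their median log2 fold change was -0.40, and in 19 members the genotypes did not overlap (38.2% of all genes tested), 16 of them lower in TCKO. The number of falls was 5 without WT-1, 5 without WT-2, 4 without TCKO-1 and 4 without TCKO-2, with 1 (Slc7a2) when replicates 1 and 2 were summed. The median was smaller in size in every fit that left out 1 library, between -0.29 and -0.37. This is a description of a group chosen with results known.

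Falls included both chains of the main importer of leucine and other large neutral amino acids. Slc3a2, the heavy chain shared by several carriers, was at 384, 361 and 377 CPM in WT and 263, 276 and 243 CPM in TCKO (log2 fold change -0.52 ± 0.07, adjusted p = 0.00247). Slc7a5, the light chain that carries out transport, was at 469.6, 436 and 483 CPM in WT and 333, 331 and 248 CPM in TCKO (log2 fold change -0.61 ± 0.12, adjusted p = 0.0104). Both were lower in every TCKO library, and Slc7a5 was lowest in TCKO-3. Both passed without any single library, but with replicates 1 and 2 summed their adjusted p-values were 0.082 and 0.113.

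Slc7a8, another light chain that joins Slc3a2, was at 30.03, 27.4 and 7.99 CPM in WT and 4.1, 4.3 and 2.42 CPM in TCKO. WT-3 was far below the other WT libraries but above all TCKO libraries (6.07-fold lower in TCKO, log2 fold change -2.60 ± 0.55, adjusted p = 0.0227). Its adjusted p was 0.168 with replicates 1 and 2 summed, 0.0539 with limma-voom, 0.0643 without WT-1, 0.0708 without WT-2, 0.075 without TCKO-1, 0.0704 without TCKO-2 and 0.0815 without TCKO-3. Slc43a2, which moves large neutral amino acids without a partner, was at 42.9, 40.9 and 40.4 CPM in WT and 16, 13.9 and 27.9 CPM in TCKO. TCKO-3 lay between the other TCKO libraries and WT (log2 fold change -1.10 ± 0.24, adjusted p = 0.0212). It missed the threshold in each fit without WT-1, WT-2, WT-3, TCKO-1 or TCKO-2 (adjusted p from 0.0507 to 0.0771) and with replicates 1 and 2 summed (0.186), and Gm45606 on the opposite strand covers 9.18% of its exons.

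Of the carriers of arginine, Slc7a2 fell as given above and Slc7a1, which serves the same substrates, was at 148, 147 and 166 CPM in WT and 117, 110.2 and 126 CPM in TCKO. Per kilobase of exon it stood at 11.8 CPM over all libraries, against 1.13 CPM for Slc7a2, and its values did not overlap between genotypes (log2 fold change -0.39 ± 0.08, adjusted p = 0.0152). Its call was lost without TCKO-1 (adjusted p = 0.064), without TCKO-2 (0.0725) and with replicates 1 and 2 summed (0.176). Of the glutamine and glutamate carriers, Slc1a5, a glutamine exchanger, was at 29.9, 31.9 and 49.9 CPM in WT and 21.8, 20.5 and 19.8 CPM in TCKO. WT-3 was highest and the TCKO libraries were alike (log2 fold change -0.84 ± 0.20, adjusted p = 0.0243). Its adjusted p was 0.0731 without TCKO-1, 0.0848 without TCKO-2, 0.0609 without TCKO-3 and 0.127 with replicates 1 and 2 summed.

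Slc1a3, which takes up glutamate and aspartate, was at 4.37, 5.79 and 4.77 CPM in WT and 2.11, 3.44 and 1.54 CPM in TCKO, low but without overlap (log2 fold change -1.09 ± 0.31, adjusted p = 0.0436). Its call was lost with replicates 1 and 2 summed (0.177) and without any 1 of the WT replicates, TCKO-1 or TCKO-3 (adjusted p from 0.0524 to 0.164). Slc36a1, a lysosomal exporter of small amino acids with protons, also fell (log2 fold change -0.46 ± 0.10, adjusted p = 0.015), with adjusted p-values of 0.0592 to 0.0716 without WT-1, WT-2 or TCKO-2 and 0.19 with replicates 1 and 2 summed. It was named after its values were seen.

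The 2 members that rose were importers of neutral amino acids with sodium. Slc38a1, a glutamine importer, was at 55, 49.2 and 56.5 CPM in WT and 86.9, 81.7 and 67.7 CPM in TCKO, with the smallest difference in replicate 3 (log2 fold change 0.55 ± 0.11, adjusted p = 0.0104). Slc6a15, which prefers branched-chain amino acids and is best known from neurons, was at 2.19, 2.37 and 3.34 CPM in WT and 5.1, 5.16 and 7.38 CPM in TCKO (log2 fold change 1.16 ± 0.26, adjusted p = 0.0192). Each TCKO library was above every WT library in both genes. Slc38a1 lost its call without WT-2 (adjusted p = 0.0549), and Slc6a15 without WT-1 (0.0829) and WT-2 (0.086). With replicates 1 and 2 summed the values were 0.161 and 0.163.

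Several known carriers did not pass. Slc38a2, a glutamine and proline importer, had a log2 fold change of -0.28 ± 0.12 (adjusted p = 0.136), and Slc7a11, the cystine importer, had a log2 fold change of -0.41 ± 0.21 (adjusted p = 0.211) with overlapping genotypes. Slc6a6, the taurine importer, was at 402, 396 and 352 CPM in WT and 344, 348 and 567 CPM in TCKO (log2 fold change 0.13 ± 0.20, adjusted p = 0.693). It was lower in TCKO in replicates 1 and 2 and higher in replicate 3. Replicates 1 and 2 taken alone gave a log2 fold change of -0.20 (adjusted p = 8.71e-05), in a fit added after seeing the data. That fit measures only the spread between these alike libraries.

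Genes of the amino acid response, which the transcription factor ATF4 turns on when amino acids are scarce, were counted beside these carriers. Of 28 genes, 8 fell and 0 rose, where 8.9% of all genes tested fell and 9.44% rose. At an unadjusted p under 0.05, 0 rose in edgeR, and DESeq2 and limma-voom called 0 rises. Asns, which makes asparagine, was at 223, 213 and 221 CPM in WT and 161, 158 and 136 CPM in TCKO (log2 fold change -0.53 ± 0.08, adjusted p = 0.00334). Chac1, which degrades glutathione, was at 57.4, 53.9 and 59 CPM in WT and 33.9, 36.9 and 28.8 CPM in TCKO (log2 fold change -0.78 ± 0.10, adjusted p = 0.00205), and Sesn2, which lowers mTORC1 activity, had a log2 fold change of -0.39 ± 0.07 (adjusted p = 0.00765). In each of these genes all TCKO libraries were below all WT libraries. None of the 8 passed with replicates 1 and 2 summed, where the smallest adjusted p was 0.0517. The falls numbered 4 without WT-1 or WT-2 and 5 without TCKO-1, and 1 gene of the list rose without WT-3. Atf4 itself had a log2 fold change of -0.30 ± 0.07 (adjusted p = 0.0238), a call lost without WT-1, WT-2, TCKO-1 or TCKO-2 (adjusted p from 0.0639 to 0.0863).

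**Figure D3:**
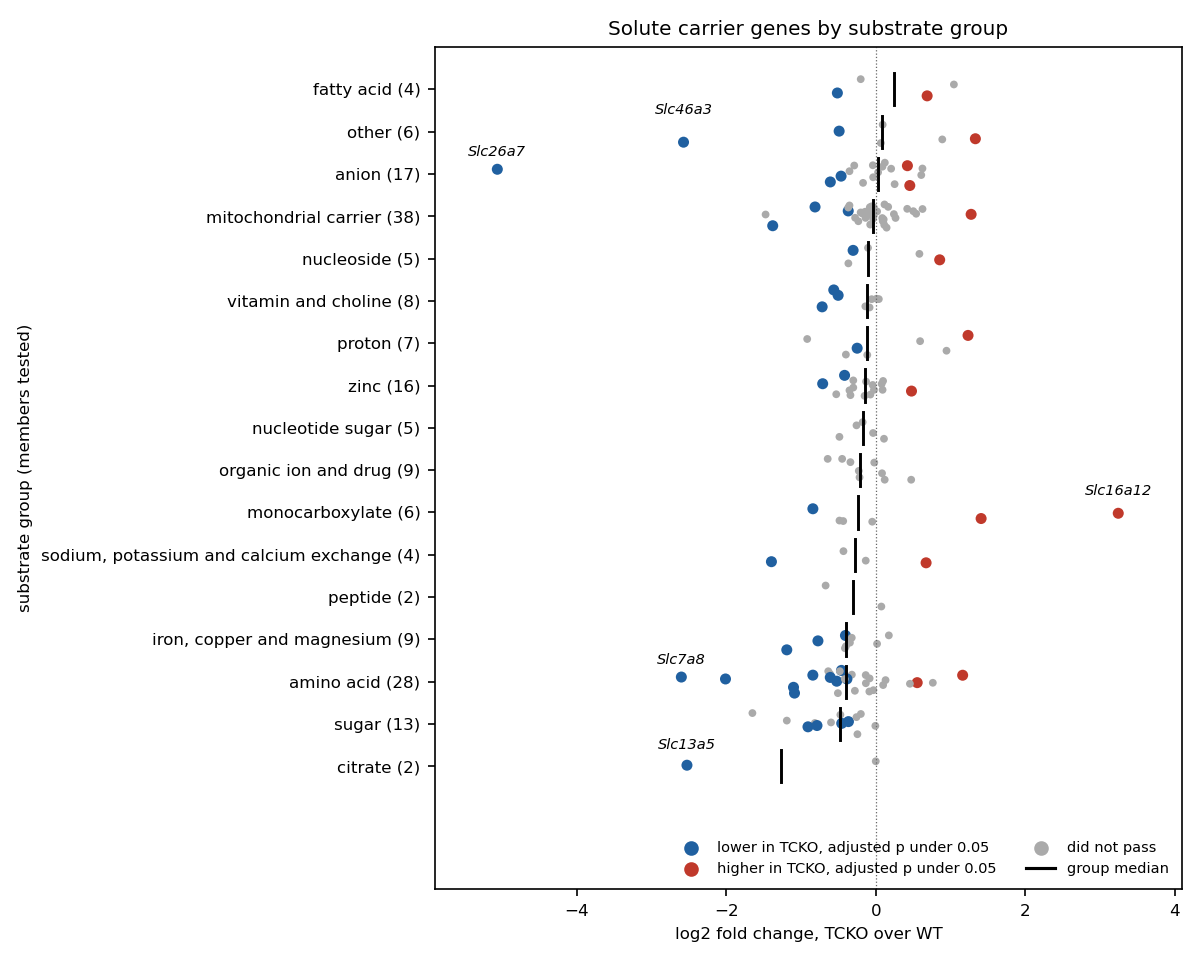
Log2 fold change of TCKO over WT (x axis) of the 179 solute carrier genes tested, by substrate group (y axis, number tested in parentheses), with 1 point a gene, coloured points for genes past edgeR's test and a black bar at each group's median. The amino acid group has 9 falling and 2 rising genes and a median of -0.40, and the anion group a median of 0.03.

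Of 16 zinc carriers, 1 (6.25%) rose, 2 (12.5%) fell and 13 did not pass, beside 9.44% rising and 8.9% falling over all genes tested. The median log2 fold change of -0.14 was the same as over all members. Members of the Slc39 family bring zinc into the cytosol and those of the Slc30 family move it out or into vesicles. Slc39a14, an importer of zinc, iron and manganese, was at 159, 169 and 204 CPM in WT and 108, 109.7 and 107 CPM in TCKO. All TCKO libraries were nearly equal and below WT (log2 fold change -0.71 ± 0.10, adjusted p = 0.00238), and with replicates 1 and 2 summed the adjusted p was 0.0594. Slc39a10, another surface importer, was at 94.3, 93.8 and 76.3 CPM in WT and 132, 117 and 119.9 CPM in TCKO, and every TCKO library was above every WT library (log2 fold change 0.48 ± 0.10, adjusted p = 0.0125). Its call was lost without TCKO-1 (0.0565) and with replicates 1 and 2 summed (0.122).

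Slc39a3 lay at the threshold (log2 fold change -0.42 ± 0.12, adjusted p = 0.0499). With 1 library left out it passed in only 1 of 6 fits, that without WT-3, and had adjusted p-values of 0.0813 to 0.177 without WT-1, WT-2 or any 1 TCKO library. Nor did it pass with DESeq2 (0.0684), limma-voom (0.0579), RLE factors (0.0507), no filter (0.0511) or replicates 1 and 2 summed (0.296). Slc39a13, a carrier of the secretory pathway that is mutated in a human Ehlers-Danlos syndrome with skeletal changes, was at 151, 149 and 183 CPM in WT and 117, 113 and 152 CPM in TCKO. Replicate 3 was the highest library of each genotype, and the genotypes overlapped (log2 fold change -0.34 ± 0.14, adjusted p = 0.126). With replicate number as a block its adjusted p was 0.00833, and without TCKO-3 it was 0.013. It did not pass with replicates 1 and 2 summed (0.426) or with any other 1 library left out (0.182 to 0.325). Slc39a8 had a log2 fold change of -0.53 ± 0.23 (adjusted p = 0.156) and Slc30a5, which loads zinc into the Golgi, had a log2 fold change of -0.02 ± 0.09 (adjusted p = 0.88).

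The metallothioneins Mt1 and Mt2, which bind zinc and copper in the cytosol, both rose. Mt2 was at 4.14, 4.08 and 5.49 CPM in WT and 10.1, 12.9 and 10.6 CPM in TCKO (log2 fold change 1.29 ± 0.19, adjusted p = 0.00319), and Mt1 was at 14.3, 14 and 17.5 CPM in WT and 25.3, 27.4 and 24.1 CPM in TCKO (log2 fold change 0.74 ± 0.12, adjusted p = 0.00566). Both were higher in every TCKO library, passed in each fit that left out 1 library, and had adjusted p-values of 0.071 and 0.12 with replicates 1 and 2 summed. Mtf1, the zinc-sensing factor that induces them, was the third of the 3 genes tested (log2 fold change -0.09 ± 0.09, adjusted p = 0.522).

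Of 5 nucleoside and nucleobase carriers, 1 rose, 1 fell and 3 did not pass, beside 9.44% rising and 8.9% falling over all genes tested. Slc29a3, which moves nucleosides out of lysosomes, was at 55.8, 58.7 and 52.9 CPM in WT and 46.8, 41.9 and 47.1 CPM in TCKO (log2 fold change -0.30 ± 0.08, adjusted p = 0.0395). Slc29a2, a carrier of the cell surface, was at 3.11, 2.28 and 3.82 CPM in WT and 5.21, 5.16 and 6.17 CPM in TCKO (log2 fold change 0.86 ± 0.24, adjusted p = 0.0439). The genotypes did not overlap in either gene, but neither passed with DESeq2 (0.1 and 0.072), with replicates 1 and 2 summed (0.292 and 0.243), or without WT-1, WT-2, TCKO-1 or TCKO-2 (from 0.0955 to 0.151 for Slc29a3 and from 0.0991 to 0.152 for Slc29a2). Without TCKO-3 the value for Slc29a2 was 0.0774. The main surface carrier, Slc29a1, had overlapping genotypes (log2 fold change -0.10 ± 0.13, adjusted p = 0.627). Slc28a2 and Slc28a3, which import nucleosides with sodium, were not listed.

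Of 23 genes of nucleoside metabolism, 20 were tested, 1 rose and 3 fell, beside 9.44% rising and 8.9% falling over all genes tested. The falls numbered 0 without WT-1, WT-2 or TCKO-1 and 1 without TCKO-2, and the rises 3 without WT-3 and 0 without WT-1, WT-2, TCKO-2 or TCKO-3. Pnp, which splits purine nucleosides (log2 fold change -0.32 ± 0.07, adjusted p = 0.0197), and Samhd1, which degrades deoxynucleotides (log2 fold change -0.52 ± 0.12, adjusted p = 0.0225), were lower, and Nt5c2, which removes phosphate from nucleotides (log2 fold change 0.35 ± 0.10, adjusted p = 0.0396), was higher. None passed with replicates 1 and 2 summed (0.199, 0.253 and 0.212) or without WT-1 (0.0883, 0.0873 and 0.143). Their values without WT-2 were 0.0709, 0.0885 and 0.106. Pnp (0.074) and Samhd1 (0.0895) did not pass without TCKO-1, Samhd1 (0.0774) and Nt5c2 (0.136) without TCKO-2, and Nt5c2 without TCKO-3 (0.0671) or with DESeq2 (0.0903).

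Among 9 carriers of iron, copper and magnesium, 3 (33.3%) fell and none rose, where 8.9% of all genes tested fell and 9.44% rose. Their median log2 fold change was -0.40. Beside Slc48a1, Slc11a2, which brings ferrous iron across the surface and out of endosomes, was at 55.1, 54.6 and 57.4 CPM in WT and 40.2, 43.1 and 42.9 CPM in TCKO, without overlap (log2 fold change -0.41 ± 0.07, adjusted p = 0.00827, and 0.133 with replicates 1 and 2 summed). Slc11a1, the related carrier of macrophage phagosomes, was at 10.7, 9.96 and 5.85 CPM in WT and 4.21, 5.16 and 2.31 CPM in TCKO. It was lowest in replicate 3 of each genotype, as were the summed macrophage markers, at 399 CPM in WT-3 and 161 CPM in TCKO-3, whose part in it was not tested (log2 fold change -1.19 ± 0.33, adjusted p = 0.0413). Its call was lost with replicates 1 and 2 summed (0.241) and without WT-1, WT-2 or any 1 TCKO library (adjusted p from 0.0538 to 0.145). Slc40a1, the iron exporter, was at 35, 35.7 and 11.7 CPM in WT and 26.4, 25.8 and 10.1 CPM in TCKO, again lowest in replicate 3 (log2 fold change -0.41 ± 0.53, adjusted p = 0.643), with an adjusted p of 0.0316 when replicate number was a block, 0.825 with replicates 1 and 2 summed and 0.262 to 0.929 with 1 library left out. At an unadjusted p under 0.05, 1 of the 9 rose, and DESeq2 and limma-voom called 0 rises.

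Of 38 mitochondrial carriers, 34 did not pass, and the median log2 fold change was -0.03. Slc25a13 rose (2.63% of the group) and 3 fell (7.89%), where 9.44% of all genes tested rose and 8.9% fell. Slc25a42, which brings coenzyme A into the mitochondrion, was at 16.4, 17 and 17.2 CPM in WT and 8.87, 7.86 and 12 CPM in TCKO (log2 fold change -0.81 ± 0.17, adjusted p = 0.0136), Slc25a45 had a log2 fold change of -1.38 ± 0.30 (adjusted p = 0.016) and Slc25a16 a log2 fold change of -0.37 ± 0.11 (adjusted p = 0.0449). All 3 were lower in every TCKO library, but none passed with replicates 1 and 2 summed (0.169, 0.142 and 0.288), without WT-1 (0.0514, 0.0658 and 0.145), WT-2 (0.0585, 0.0605 and 0.159) or TCKO-2 (0.0531, 0.056 and 0.136). Without TCKO-1, Slc25a42 (0.0603) and Slc25a16 (0.0848) did not pass, nor did Slc25a16 without TCKO-3 (0.0758), with DESeq2 (0.137) or with no filter (0.0524). The ADP and ATP exchangers Slc25a4 (log2 fold change 0.11 ± 0.07, adjusted p = 0.31) and Slc25a5 (log2 fold change 0.12 ± 0.08, adjusted p = 0.37) and the phosphate carrier Slc25a3 (log2 fold change 0.11 ± 0.07, adjusted p = 0.306) did not pass.

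Of 13 sugar carriers, 4 (30.8%) fell and none rose, where 8.9% of all genes tested fell and 9.44% rose. Slc2a1 and Slc2a3 were left out by name, and Slc5a3, which rose, was not placed in this group. The fitted log2 fold changes ran from -1.65 to -0.0053 with a median of -0.47. At an unadjusted p under 0.05, 0 rose, and DESeq2 and limma-voom called 0 rises. The falls numbered 1 without WT-1, TCKO-1 or TCKO-2, 2 without WT-2 and 0 with replicates 1 and 2 summed. Slc37a2, a glucose 6-phosphate exchanger of the endoplasmic reticulum known from macrophages and osteoclasts, was at 10.9, 11 and 10.6 CPM in WT and 6.65, 5.28 and 5.4 CPM in TCKO. All TCKO libraries were lower (log2 fold change -0.91 ± 0.16, adjusted p = 0.00626, and 0.0935 with replicates 1 and 2 summed). Of 7 osteoclast markers, 4 were listed, 2 were tested and only Ctsk was called. Those listed summed to 136, 130.02 and 118 CPM in WT and 34.8, 29.6 and 20.9 CPM in TCKO. The published study also cites Ctsk as a marker of periosteal stem cells, so this sum is not specific to osteoclasts. The macrophage markers summed to 803, 811 and 399 CPM in WT and 561, 598 and 161 CPM in TCKO. The part of either cell type in Slc37a2 was not tested. Slc2a6 (log2 fold change -0.79 ± 0.19, adjusted p = 0.0244), a glucose transporter of the lysosome, Slc37a4 (log2 fold change -0.46 ± 0.12, adjusted p = 0.0369), which feeds glucose 6-phosphate to its phosphatase, and Slc2a10 (log2 fold change -0.37 ± 0.10, adjusted p = 0.0426), which is mutated in human arterial tortuosity syndrome, also fell. Without WT-1 these 3 had adjusted p-values of 0.0911, 0.132 and 0.0714, without TCKO-1 0.0852, 0.0969 and 0.146, and without TCKO-2 0.0918, 0.104 and 0.137. Without WT-2 the last 2 had 0.126 and 0.151, Slc2a10 had 0.0636 without WT-3 and Slc37a4 had 0.0633 without TCKO-3. None of the 3 passed with replicates 1 and 2 summed (0.174, 0.271 and 0.266), and with DESeq2 Slc37a4 (0.124) and Slc2a10 (0.103) did not.

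Of 8 carriers of vitamins and choline, 3 (37.5%) fell and none rose, where 8.9% of all genes tested fell and 9.44% rose. There were 0 rises at an unadjusted p under 0.05, in DESeq2 or in limma-voom. Slc23a2 brings in ascorbate, which the enzymes that hydroxylate collagen require, and was at 49.7, 48.5 and 54.5 CPM in WT and 35, 38.7 and 29.9 CPM in TCKO (log2 fold change -0.56 ± 0.11, adjusted p = 0.0104). The thiamine carrier Slc19a2 was at 99.7, 102 and 95.7 CPM in WT and 63.3, 68.4 and 78.2 CPM in TCKO (log2 fold change -0.50 ± 0.09, adjusted p = 0.00763), and the choline carrier Slc44a1 was at 63.7, 71.3 and 53.2 CPM in WT and 43.6, 39.2 and 32 CPM in TCKO (log2 fold change -0.72 ± 0.14, adjusted p = 0.0115). In all 3 genes each TCKO library was below each WT library. Slc44a1 lost its call without WT-1 (0.0504) or WT-2 (0.0521), and with replicates 1 and 2 summed the 3 values were 0.105, 0.147 and 0.125.

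Carriers of monocarboxylates and related acids included 2 rises and 1 fall among 6 members, beside 9.44% rising and 8.9% falling over all genes tested. Slc16a1 and Slc16a3 were left out by name. Slc16a13 was at 1.61, 1.23 and 1.91 CPM in WT and 4.21, 4.42 and 3.97 CPM in TCKO and was higher in every TCKO library (log2 fold change 1.41 ± 0.26, adjusted p = 0.00797, and 0.116 with replicates 1 and 2 summed). Slc16a12, a creatine carrier, was at 0, 0.759 and 0.239 CPM in WT and 3.88, 5.41 and 1.32 CPM in TCKO (log2 fold change 3.25 ± 0.81, adjusted p = 0.0319). It was near 0 in WT, so its fitted fold depends on few reads: without WT-2 the log2 fold change was 4.74, and the adjusted p was 0.0801 without WT-1, 0.0781 without WT-3, 0.0918 without TCKO-1, 0.0955 without TCKO-2 and 0.116 with replicates 1 and 2 summed. Slc16a7, a high-affinity lactate and pyruvate carrier, fell (log2 fold change -0.84 ± 0.18, adjusted p = 0.014), a call lost without WT-1 (0.0628), WT-2 (0.0593), TCKO-1 (0.0561) and with replicates 1 and 2 summed (0.164).

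Ion exchangers moved in both directions. Slc24a3, which removes calcium in exchange for sodium together with potassium, was at 42.9, 39.1 and 26.4 CPM in WT and 14.5, 15.8 and 10.9 CPM in TCKO. All TCKO libraries were lower, and replicate 3 was the lowest of each genotype (log2 fold change -1.40 ± 0.21, adjusted p = 0.00424, and 0.0794 with replicates 1 and 2 summed). Slc8a1, the sodium and calcium exchanger, was at 14, 13 and 8.83 CPM in WT and 17.9, 19 and 20.4 CPM in TCKO and rose (log2 fold change 0.67 ± 0.17, adjusted p = 0.0321), a call lost without WT-2 (0.0826), TCKO-1 (0.0743), TCKO-2 (0.0914) and with replicates 1 and 2 summed (0.172). Slc9a7, a sodium and proton exchanger of the Golgi, was at 1.38, 1.71 and 0.954 CPM in WT and 4.21, 2.83 and 2.65 CPM in TCKO, higher in every TCKO library (log2 fold change 1.24 ± 0.33, adjusted p = 0.035). It did not pass with DESeq2 (0.0535), with replicates 1 and 2 summed (0.191) or without WT-1, WT-2, WT-3, TCKO-1 or TCKO-2 (adjusted p from 0.0637 to 0.134).

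In the other groups, the fatty acid importer Slc27a1 rose (log2 fold change 0.69 ± 0.13, adjusted p = 0.00986) and Slc27a3 fell (log2 fold change -0.51 ± 0.13, adjusted p = 0.0319). Slc27a1 lost its call without WT-2 (0.0525) and with replicates 1 and 2 summed (0.119), and Slc27a3 without WT-1, WT-2, TCKO-1 or TCKO-2 (from 0.0923 to 0.124) and with replicates 1 and 2 summed (0.266). Slc33a1, which brings acetyl-CoA into the endoplasmic reticulum, was at 64.4, 64.9 and 69.2 CPM in WT and 44.1, 48.9 and 48.4 CPM in TCKO, lower in every TCKO library (log2 fold change -0.49 ± 0.08, adjusted p = 0.00464, and 0.0928 with replicates 1 and 2 summed). Gm26850 on the opposite strand covers 32% of its exon length. Slc46a3, a lysosomal carrier, was at 2.07, 3.6 and 1.19 CPM in WT and 0.776, 0.246 and 0.11 CPM in TCKO, a fall in few reads (log2 fold change -2.57 ± 0.65, adjusted p = 0.0302). Its log2 fold change was -3.63 without TCKO-1, and its adjusted p was 0.0823 without WT-1, 0.126 without WT-2, 0.107 without TCKO-2, 0.053 without TCKO-3 and 0.163 with replicates 1 and 2 summed.

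No member passed edgeR's test, DESeq2 or limma-voom among 5 carriers of nucleotide sugars, 9 of organic ions and drugs and 2 of peptides. At an unadjusted p under 0.05, 2 nucleotide sugar carriers and 2 organic ion and drug carriers were lower and 0 members of these groups were higher. With replicate number as a block, 1 nucleotide sugar carrier and 1 organic ion and drug carrier were called lower, and 0 with replicates 1 and 2 summed. The UDP-galactose carrier Slc35a2, which supplies the Golgi, was at 65.8, 56.7 and 67.2 CPM in WT and 51.3, 55.5 and 61.1 CPM in TCKO (log2 fold change -0.18 ± 0.10, adjusted p = 0.264), and Slc10a7, which is mutated in a human skeletal dysplasia, was at 34.2, 32.2 and 31 CPM in WT and 38, 35.5 and 29.9 CPM in TCKO (log2 fold change 0.08 ± 0.11, adjusted p = 0.632). The genotypes overlapped in both.

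Levels between genes were compared per length, as CPM per kilobase of exon. The 4 highest members were Slc25a4 (231 ± 3.6 in WT and 249 ± 6.83 in TCKO, mean ± SD, n = 3), Slc25a5 (172 ± 16.5 and 186 ± 4.22), Slc39a7 (141 ± 9.21 and 129 ± 4.51) and Slc7a5 (125 ± 6.49 and 81.9 ± 13.1). Gm20427, a transcript on the same strand, covers 80.7% of the exon length of the Golgi and reticulum zinc carrier Slc39a7, so its count is uncertain. Next came Slc3a2 (106 ± 3.29 and 73.8 ± 4.66), Slc25a3 (81.8 ± 1.82 and 88.6 ± 4.19), Slc48a1 (101 ± 3.14 and 58.9 ± 3.04) and the zinc importer Slc39a1 (72.7 ± 0.549 and 76.8 ± 3.53), followed by Slc6a6 (45.3 ± 3.19 and 49.6 ± 15.1) and Slc38a10 (48.1 ± 1 and 43.9 ± 1.83). Of these 10, Slc7a5, Slc3a2 and Slc48a1 fell and the other 7 did not pass. In WT, Slc48a1 and Slc3a2 stood above Slc25a3, and in TCKO below it. Slc39a7, Slc39a1 and Slc38a10 had log2 fold changes of -0.13 ± 0.08, 0.08 ± 0.06 and -0.13 ± 0.07. Slc13a5 stood at 25 ± 2.6 in WT and 4.34 ± 0.263 in TCKO. The plot of levels shows each member in both genotypes.

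**Figure D4:**
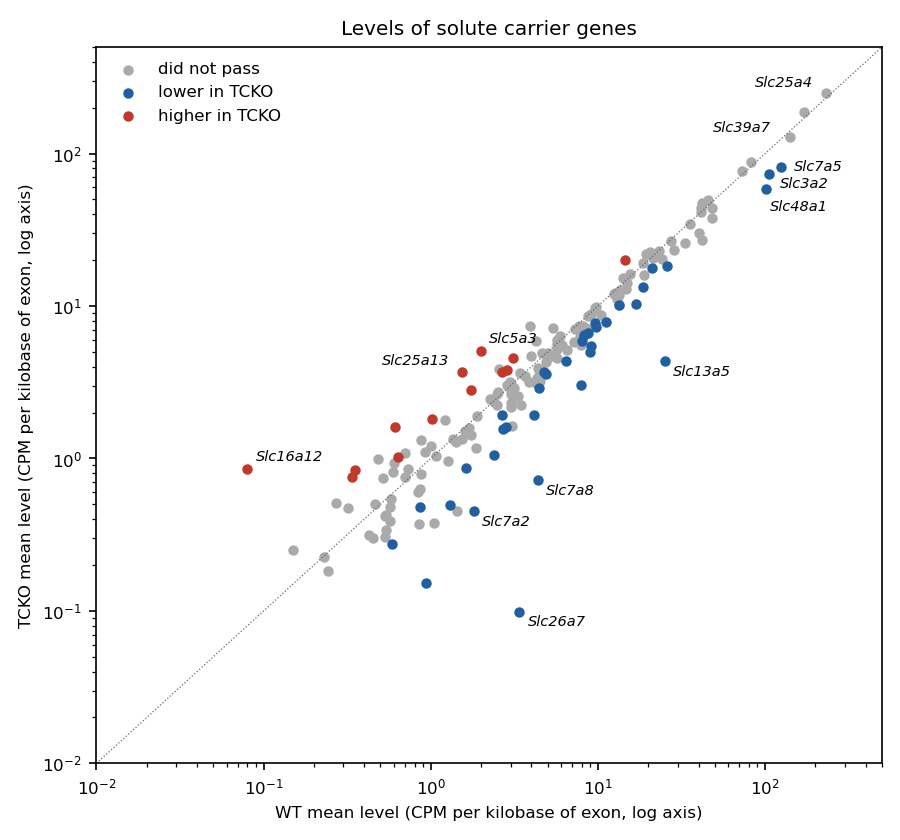
Mean level of each of the 179 solute carrier genes tested in WT (x axis) and TCKO (y axis), in CPM per kilobase of exon on log axes, with 1 point a gene, coloured where it passed edgeR's test, and a dotted line of equal levels. Slc7a5, Slc3a2 and Slc48a1 lie below the line near the top, and Slc13a5, Slc7a8, Slc7a2 and Slc26a7 lie farther below it at lower levels.

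The members nearest to the limit of 60 summed reads were Slc24a2, Slc29a4 and Slc8a2, each with 61 reads. Slc24a2 had 10, 29 and 7 reads in WT and 6, 5 and 4 reads in TCKO, Slc29a4 had 6, 9 and 10 reads in WT and 11, 9 and 16 reads in TCKO, and Slc8a2 had 11, 16 and 9 reads in WT and 7, 11 and 7 reads in TCKO. Just outside were Slc14a2, with 4, 4 and 2 reads in WT and 21, 19 and 8 reads in TCKO, Slc1a1, with 14, 21 and 8 reads in WT and 5, 6 and 3 reads in TCKO, and Slc26a10, with 6, 19 and 2 reads in WT and 8, 9 and 12 reads in TCKO. Members of so few reads could show only large differences at this depth.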

How the data were processed

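Values were raw read counts per gene in 6 libraries, deposited by the authors for GRCm38. Total RNA libraries were made with a TruSeq kit. The submitters' processing notes name HISAT2 and the published methods STAR as the aligner, and neither the counting program nor its strand setting is given in the sources used here. Listed genes have at least 10 reads in all. The columns of normalized signal, log2 fold change, p-value and FDR, deposited by the authors, were not used.

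Total counts were 8119261 to 10657824 reads, so 1 CPM was 8.12 to 10.7 reads in a library. The test was edgeR 4.0.16 (R 4.3.3), with filterByExpr keeping 13630 of 16455 genes, TMM scaling, and glmQLFit (robust) and glmQLFTest on a design of genotype alone. P-values are 2-sided and adjusted by the Benjamini-Hochberg method, "adjusted p" means this value unless another fit is named, and a log2 fold change is TCKO over WT with its SE. Alternatives were DESeq2 1.42.0, limma-voom (limma 3.58.1), RLE factors, no filter, a replicate block, replicates 1 and 2 summed, each library left out, a minimum of 300 reads and, added after seeing the data, replicates 1 and 2 only. Where a fit leaves 2 libraries in a genotype the spread is estimated over both genotypes.

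Same-numbered libraries of WT and TCKO deviated together, with correlations of 0.169, 0.173 and 0.306 over genes for numbers 1, 2 and 3. Replicates 1 and 2 also deviated together across numbers (0.156 and 0.217), and the labels name no shared litter or day. The reported fit has no block. Values with replicate number as a block are given where they change the call of a member named by the rules below.

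Exon lengths came from GENCODE vM21 and positions from RefSeq GRCm38.p6 by Entrez number, for all 181 members. RefSeq promoters matched 136 members. The members, substrate groups and gene lists were chosen with earlier results of these data known. Named members are the 8 largest rises and falls past a fold of 2 with 5 CPM or more, up to 4 called members per substrate group, the 10 highest per kilobase, members known from bone or cartilage, and the 3 nearest to the read limit on each side, apart from a few members not reported here. For the partner lists, up to 3 genes with the smallest adjusted p were named. Mtf1, Atf4, Alpl, Slc12a4 and Slc36a1 were added after their values were seen.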

Additional observations from a re-analysis of the deposited data

How the results depend on the processing

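The counts of called members kept within 1.5 times of the reported 13 rises and 35 falls, and 6 and 10 at a fold above 2, with DESeq2, limma-voom, RLE factors, no filter and the replicate block. Among members named by rule, the block changed no call other than those of Slc40a1 and Slc39a13, given above. Over all members it called 15 rises and 46 falls. With replicates 1 and 2 summed, 2 rose and 4 fell at any fold, and 2 and 3 at a fold above 2, with 2 libraries per genotype. A minimum of 300 reads removed members of low counts and left 8 rises at any fold and 2 at a fold above 2. Replicates 1 and 2 only, chosen after seeing the data, gave 29 rises and 76 falls, and 10 rises at a fold above 2. All 48 called members passed in that fit, and Slc6a6 reversed to a log2 fold change of -0.20. The fit measures only the spread between the most alike libraries of each genotype, so passing there adds no support. Leaving out 1 library gave 5 to 15 rises and 15 to 44 falls at any fold, and 3 to 7 rises and 4 to 10 falls at a fold above 2. The share of all genes called was counted for the reported fit alone. Of the named results, 8 were no longer past the threshold with DESeq2, 2 with limma-voom, 1 with RLE factors, 2 with no filter and 41 with replicates 1 and 2 summed. Why replicate 3 of both genotypes stood apart was not tested. At 8.12 to 10.7 reads per CPM, members under 1 CPM could show only large changes.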
